A study of Mus musculus with 12 samples.

Results

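Toll-like receptors are the membrane proteins with which macrophages sense microbial products, and Cd14 is the co-receptor that hands lipids and other ligands to several of them. The genes described are the 9 receptor genes Tlr1, Tlr2, Tlr3, Tlr4, Tlr6, Tlr7, Tlr8, Tlr9 and Tlr13 together with Cd14. They were found by matching Ensembl identifiers of a raw count table to mouse symbols, which gave 10 of the 48526 genes listed. All 10 passed the filter of at least 10 counts in at least 3 libraries, and their lowest count in any library was 101.

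Some of these receptors sit at the cell surface, where Tlr2 pairs with Tlr1 or Tlr6 to sense bacterial lipoproteins and Tlr4 senses lipopolysaccharide. The others are carried to endosomes by the chaperone Unc93b1 and sense nucleic acids, double-stranded RNA for Tlr3, single-stranded RNA for Tlr7, unmethylated CpG DNA for Tlr9 and bacterial ribosomal RNA for Tlr13. Ligand binding recruits the adaptors Myd88 or Ticam1, which lead to activation of NF-κB and of interferon regulatory factors and so to cytokine genes.

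Bone marrow-derived macrophages (BMDMs) of 3 female C57Bl/6J mice were grown in medium with macrophage colony-stimulating factor and used on day 7. From each mouse, cells were kept untreated or received 100 ng/mL Wnt3a (a ligand that activates Wnt signaling), 100 pg/mL IL-4 (the cytokine that signals through STAT6), or both for 16 hr, and single reads were counted per gene. The cultures were started from whole marrow, the age of the animals is not in the labels, and each mouse gave 1 library per condition. Fewer cells and less RNA per cell cannot be told apart in such bulk libraries.

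The deposited Wnt3a and Wnt3a+IL-4 columns of a mouse share reads, since the Wnt3a count lay between the Wnt3a+IL-4 count and its double in all genes, with 0 of 48526 outside. Across mice, 6681 to 8625 genes lay outside. The Wnt3a-treated cells were therefore described by a pair of parts solved in each mouse, the difference (Wnt3a column minus Wnt3a+IL-4 column) and the remainder (Wnt3a+IL-4 column minus the difference). Both come from cells that received Wnt3a, and the labels do not say which also received IL-4. Any statement about the IL-4 effect in the presence of Wnt3a is hence made under both readings. In the first assignment the remainder is the culture with both agents, and in the other assignment it is the difference. Total counts of the 12 libraries so obtained ranged from 13342492 to 17453377. Levels are given as CPM (counts scaled to the library size after TMM scaling), in the order mouse 1, 2 and 3. Adjusted p-values come from edgeR's quasi-likelihood test over 12421 genes with Benjamini-Hochberg adjustment, and a gene called higher or lower had an adjusted p under 0.05.

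**Figure D1:**
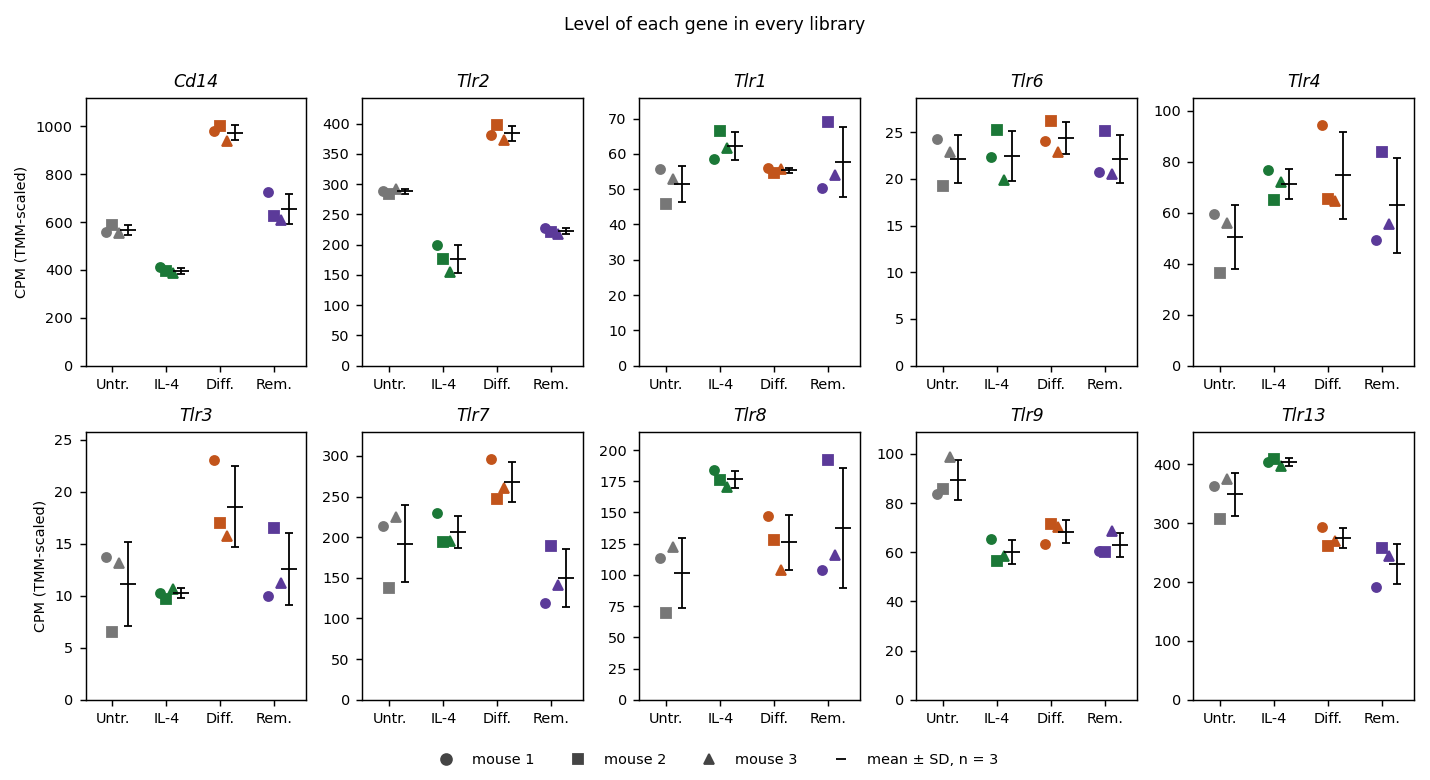
Level of each of the 10 genes in every library, in TMM-scaled CPM from 0, for untreated cells (Untr.), IL-4, the difference (Diff.) and the remainder (Rem.). Circles, squares and triangles are mouse 1, 2 and 3, and the bars are mean ± SD of 3 mice. The 4 groups of Cd14 and of Tlr2 do not overlap, and the share of all tested genes with such separation was not counted. Mouse 2 is lowest among the untreated and highest among the remainder libraries for Tlr1, Tlr3, Tlr4, Tlr6, Tlr7, Tlr8 and Tlr13.

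Upstream sequence is shown for 2 members that were called and held a motif match in the searched bases ahead of any annotated exon base, Tlr2 and Tlr9. It is also shown for Tlr8, which alone held a match to the spacing preferred by STAT6. These 3 were chosen after the values were seen. RefSeq promoter entries (build GRCm38.p6) matched 7 of the 10 genes, and Tlr4, Tlr7 and Cd14 had none. The 250 bases before each start were searched on both strands for the NF-κB motif, TTCNNNGAA (STAT), TTCNNNNGAA (STAT6), TGANTCA (AP-1), CTTTGA (TCF/LEF) and GAAANNGAAA (ISRE). Capitals mark the matches, 2 overlapping NF-κB matches in Tlr2, a STAT match beginning at -106 and a STAT6 match at -77 in Tlr8, and an AP-1 match at -58 in Tlr9.
Tlr2, chr3:83841768-83841858, minus strand: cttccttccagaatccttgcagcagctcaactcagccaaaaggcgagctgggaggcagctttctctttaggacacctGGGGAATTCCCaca
Tlr8, chrX:167264330-167264579, minus strand: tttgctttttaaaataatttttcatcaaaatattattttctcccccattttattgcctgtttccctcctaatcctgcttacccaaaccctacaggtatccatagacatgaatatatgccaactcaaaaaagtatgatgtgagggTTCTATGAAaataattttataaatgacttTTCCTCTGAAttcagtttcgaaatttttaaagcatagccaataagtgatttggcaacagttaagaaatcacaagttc
Tlr9, chr9:106222348-106222597, plus strand: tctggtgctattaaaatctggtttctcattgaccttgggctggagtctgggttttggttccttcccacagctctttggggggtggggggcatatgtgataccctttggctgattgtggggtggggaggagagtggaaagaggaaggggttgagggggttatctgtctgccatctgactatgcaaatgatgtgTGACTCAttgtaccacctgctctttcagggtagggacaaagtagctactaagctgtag
Only the 91 bases of the Tlr2 window that lie upstream of its annotated exons are printed. Of 32851 promoters of the same length, 3.90% held the NF-κB motif, 7.02% the STAT motif, 5.85% the STAT6 motif and 6.75% the AP-1 motif. TCF/LEF letters stood in 13.8% of promoters, and the windows searched for the 7 genes held none. The ISRE letters, in 2.98% of promoters, occurred at a start of Tlr6. The window of Tlr3 and that of an alternative start of Tlr1 began within annotated exons of their genes, so no stretch ahead of an exon was left to print. The NF-κB match in the former and the STAT match in the latter are therefore not printed. A match describes the letters only.

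Cd14 (ENSMUSG00000051439, chromosome 18, 36725067 to 36726798, minus strand of mm10) was the most abundant member per kilobase of exon in each group. Its level was 556, 590 and 556 CPM in untreated cells and 410.4, 394 and 387 CPM with IL-4. In the difference it was 980.4, 1000.3 and 938 CPM, and in the remainder 726, 626 and 609 CPM. The 4 groups did not overlap, with IL-4 lowest and the difference highest in each mouse. How many of all tested genes have groups separated in this way was not counted. With IL-4 alone Cd14 was 1.43-fold lower than in untreated cells, a log2 fold change of -0.51 ± 0.08 (SE, edgeR adjusted p = 0.00167). In the difference it was 1.71-fold higher than in untreated cells (0.78 ± 0.08, adjusted p = 6.72e-06). In the remainder its log2 fold change of 0.21 ± 0.08 did not pass (adjusted p = 0.0732), and it was 1.49-fold lower than in the difference (-0.57 ± 0.08, adjusted p = 0.000583). Without the remainder library of mouse 2 the remainder value was 0.24 and passed (adjusted p = 0.0400), as it did with DESeq2 (0.21, adjusted p = 0.0372). Without mouse 3 the IL-4 change (-0.51, adjusted p = 0.133) and the change between the parts (-0.55, adjusted p = 0.0967) did not pass.

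Tlr2 (ENSMUSG00000027995, chromosome 3, 83836272 to 83841767, minus strand), the shared partner of the lipoprotein receptors, had the same order of groups apart from the remainder, which lay below untreated cells. Levels were 289, 283 and 292 CPM in untreated cells and 199, 176 and 154 CPM with IL-4. They were 382, 397 and 373 CPM in the difference and 227, 220.4 and 218 CPM in the remainder. No group overlapped another, a separation whose share among all tested genes was not counted. The SD of the untreated level was 4.38 CPM around a mean of 288 CPM. IL-4 alone gave a 1.63-fold lower level (-0.71 ± 0.08, edgeR adjusted p = 0.000194). The difference was 1.33-fold above untreated cells (0.42 ± 0.08, adjusted p = 0.00231) and the remainder 1.30-fold below (-0.38 ± 0.08, adjusted p = 0.00415). Between the parts Tlr2 was 1.73-fold lower in the remainder (-0.79 ± 0.08, adjusted p = 6.77e-05). Without mouse 3 the change of the remainder from untreated cells was -0.35 and did not pass (adjusted p = 0.0730). With the deposited columns in place of the parts the change of the Wnt3a column from untreated cells was 0.18 (adjusted p = 0.0693), and that of the Wnt3a+IL-4 column was 0.056 in place of -0.38.

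Neither partner of Tlr2 was called in any comparison. Tlr1 (ENSMUSG00000044827, chromosome 5, 64924679 to 64933563), which pairs with Tlr2 for triacylated lipoproteins, ranged from 45.7 to 55.7 CPM in untreated cells and from 58.6 to 66.5 CPM with IL-4. It ranged from 54.5 to 55.9 CPM in the difference and from 50.2 to 69.1 CPM in the remainder. Tlr6 (ENSMUSG00000051498, chromosome 5, 64952031 to 64960097), the partner for diacylated lipoproteins, lay between 19.2 and 26.2 CPM in all 12 libraries, and its groups overlapped throughout. The 95% interval for Tlr6 ran from -0.25 to 0.29 with IL-4 and from -0.13 to 0.41 in the difference, on the log2 scale. Tlr1 with IL-4 had a log2 fold change of 0.27 (95% interval 0.03 to 0.52, edgeR adjusted p = 0.265). On the per-kilobase scale the ratio of Tlr2 to Tlr1 was 6.25 ± 0.57 (SD, n = 3 mice) in untreated cells, 3.16 ± 0.53 with IL-4, 7.71 ± 0.35 in the difference and 4.35 ± 0.75 in the remainder. The ratio of Tlr2 to Tlr6 was 16.2 ± 1.80, 9.75 ± 1.20, 19.5 ± 0.71 and 12.5 ± 1.45 in the same order.

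Tlr1 and Tlr6 are neighbors with near-identical coding stretches, which limits how well their reads can be told apart. Of the 50-base stretches of Tlr1 transcripts, 15.4% also occur in another gene, chiefly Tlr6, and for Tlr6 this share was 12.3%. Their longest common coding stretch has 229 bases, of which the first 60 in the direction of transcription are shown because a read within them matches both genes.
Tlr1 (chr5:64925706-64925765) and Tlr6 (chr5:64953997-64954056), minus strand of GRCm38: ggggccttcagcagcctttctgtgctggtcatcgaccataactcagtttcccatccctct
How the authors' counting treated reads with several positions is not given in the sources used here. Of the other members, Tlr3 had 5.30% of its stretches in common with the antisense gene Gm45542 and Tlr4 had 0.216% in common with another gene, and the remaining 6 shared none.

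Tlr4 (ENSMUSG00000039005, chromosome 4, 66827584 to 66930284, plus strand), the lipopolysaccharide receptor that works with Cd14 and Ly96, was measured at 59.6, 36.3 and 56.1 CPM in untreated cells. It reached 76.8, 65.0 and 72.3 CPM with IL-4, 94.4, 65.4 and 64.6 CPM in the difference, and 49.2, 84.0 and 55.5 CPM in the remainder. The IL-4 and difference libraries all lay above the untreated ones, but mouse 2 was low among the untreated and high among the remainder libraries. No change of Tlr4 was called, with log2 fold changes of 0.49 (95% interval 0.04 to 0.95, edgeR adjusted p = 0.296) for IL-4 and 0.56 (0.11 to 1.02, adjusted p = 0.0718) for the difference. The latter passed with DESeq2 (0.57, adjusted p = 0.0332) and without the remainder library of mouse 2 (0.56, adjusted p = 0.0386). Cd14 exceeded Tlr4 per kilobase by 38.0 ± 12.3 times (SD, n = 3 mice) in untreated cells, 17.9 ± 1.34 times with IL-4, 43.0 ± 8.48 times in the difference and 35.5 ± 11.7 times in the remainder.

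Tlr9 (ENSMUSG00000045322, chromosome 9, 106222598 to 106226883, plus strand), the CpG DNA receptor, was lower than in untreated cells under every treatment. It was measured at 83.9, 85.6 and 98.7 CPM in untreated cells and at 65.4, 56.3 and 58.4 CPM with IL-4. The difference held 63.3, 71.6 and 70.4 CPM and the remainder 60.6, 59.9 and 68.5 CPM. Every treated library lay below every untreated library, and the 3 treated groups overlapped one another. The log2 fold changes were -0.57 ± 0.09 with IL-4 (SE, edgeR adjusted p = 0.00230), -0.39 ± 0.09 in the difference (adjusted p = 0.00736) and -0.50 ± 0.09 in the remainder (adjusted p = 0.000979). The parts did not differ detectably from each other, with a log2 fold change of -0.12 (95% interval -0.32 to 0.08). Without mouse 3 the IL-4 change was -0.48 (adjusted p = 0.180) and that of the difference -0.33 (adjusted p = 0.126).

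Tlr13 (ENSMUSG00000033777, chromosome X, 106143204 to 106160493, plus strand), the receptor for bacterial ribosomal RNA, was lower in both parts and was not called with IL-4. Its levels were 363, 308 and 376 CPM in untreated cells and 405, 409.8 and 397 CPM with IL-4. The difference held 294, 261 and 270.2 CPM, and the remainder held 192, 257 and 244 CPM. Both parts lay below the untreated libraries and the IL-4 libraries lay above them. The remainder was 1.51-fold below untreated cells (-0.60 ± 0.11, edgeR adjusted p = 0.000812) and the difference 1.27-fold below (-0.34 ± 0.11, adjusted p = 0.0302). With the mouse as replicate block the adjusted p for the difference was 0.0523. That change also failed without mouse 3 (-0.27, adjusted p = 0.316), without the untreated library of mouse 1 (-0.32, adjusted p = 0.0774) or mouse 3 (-0.29, adjusted p = 0.107), and without the difference library of mouse 2 (-0.31, adjusted p = 0.109) or mouse 3 (-0.33, adjusted p = 0.0863). For IL-4 the log2 fold change was 0.21 (95% interval -0.02 to 0.44).

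Tlr7 (ENSMUSG00000044583, chromosome X, 167304929 to 167330558, minus strand), a receptor for single-stranded RNA, differed between the parts. It was measured at 214, 138 and 224 CPM in untreated cells and at 229.7, 195 and 195 CPM with IL-4. It was at 296, 248 and 259.99 CPM in the difference and at 119, 189 and 141 CPM in the remainder. The difference libraries lay above all others, and mouse 2 was lowest of the untreated and highest of the remainder libraries. Tlr7 was 1.79-fold lower in the remainder than in the difference (-0.84 ± 0.18, edgeR adjusted p = 0.0132). This change did not pass without mouse 1 (-0.62, adjusted p = 0.151) or mouse 3 (-0.82, adjusted p = 0.269), without the difference library of mouse 1 (-0.76, adjusted p = 0.0555), or without the remainder library of mouse 1 (-0.70, adjusted p = 0.0661) or mouse 3 (-0.80, adjusted p = 0.0638). Against untreated cells the log2 fold change was 0.48 in the difference (adjusted p = 0.0655) and -0.36 in the remainder (adjusted p = 0.160). The latter was -0.55 without the untreated library of mouse 2 (adjusted p = 0.0168) and -0.56 without the remainder library of mouse 2 (adjusted p = 0.0296). The former passed with DESeq2 (0.49, adjusted p = 0.0308), without the remainder library of mouse 1 (0.49, adjusted p = 0.0442) and without that of mouse 2 (0.47, adjusted p = 0.0383).

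Tlr8 (ENSMUSG00000040522, chromosome X, 167242696 to 167264329, minus strand), the neighbor and relative of Tlr7, showed another order. Its levels were 113, 69.6 and 122 CPM in untreated cells and 184, 176 and 170.3 CPM with IL-4. They were 147, 128 and 104 CPM in the difference and 104, 192 and 116 CPM in the remainder. The IL-4 libraries lay above all untreated and difference libraries, while the remainder overlapped every other group, that of IL-4 through mouse 2 only. The IL-4 change of 0.80 ± 0.22 on the log2 scale (a 1.74-fold higher mean) did not pass (edgeR adjusted p = 0.0756). It passed without mouse 2 (0.58, adjusted p = 0.0498), without the remainder library of mouse 2 (0.78, adjusted p = 0.0231) and in a fit on the untreated and IL-4 libraries alone (0.79, adjusted p = 0.0347). Per kilobase, the ratio of Tlr7 to Tlr8 was 1.67 ± 0.07 (SD, n = 3 mice) in untreated cells, 1.03 ± 0.07 with IL-4, 1.89 ± 0.27 in the difference and 0.98 ± 0.11 in the remainder. This ratio did not overlap between the untreated libraries (1.61 to 1.74) and those of IL-4 (0.97 to 1.10) or the remainder (0.86 to 1.07), and no test was made of it.

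Tlr3 (ENSMUSG00000031639, chromosome 8, 45395665 to 45411080, minus strand), the double-stranded RNA receptor, was the least abundant member, with 101 to 402 counts per library. It was measured at 13.7, 6.50 and 13.2 CPM in untreated cells, 10.3, 9.71 and 10.7 CPM with IL-4, 23.0, 17.0 and 15.7 CPM in the difference and 10.00, 16.5 and 11.2 CPM in the remainder. The difference libraries lay above the untreated ones, and mouse 2 again stood apart in the untreated and remainder groups. Against untreated cells Tlr3 was 1.67-fold higher in the difference (0.74 ± 0.25, edgeR adjusted p = 0.0442). This call was lost with the mouse as replicate block (adjusted p = 0.0654), with total counts as the scaling (0.64, adjusted p = 0.104), in a fit on the groups compared alone (0.75, adjusted p = 0.0740), on the deposited columns (0.56, adjusted p = 0.0625) and without any of the 3 mice (0.51 to 0.98, adjusted p from 0.0709 to 0.115). It was also lost without the untreated library of mouse 2 (0.47, adjusted p = 0.121) or mouse 3 (0.86, adjusted p = 0.0568), the difference library of mouse 1 (0.54, adjusted p = 0.193) or mouse 2 (0.80, adjusted p = 0.0688), the remainder library of mouse 3 (0.74, adjusted p = 0.0556), or any of the 3 IL-4 libraries (0.73 to 0.74, adjusted p from 0.0564 to 0.0662). The antisense gene Gm45542 covers 7.32% of the exon bases of Tlr3, and whether counting used the strand is not given in the sources used here.

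**Figure D2:**
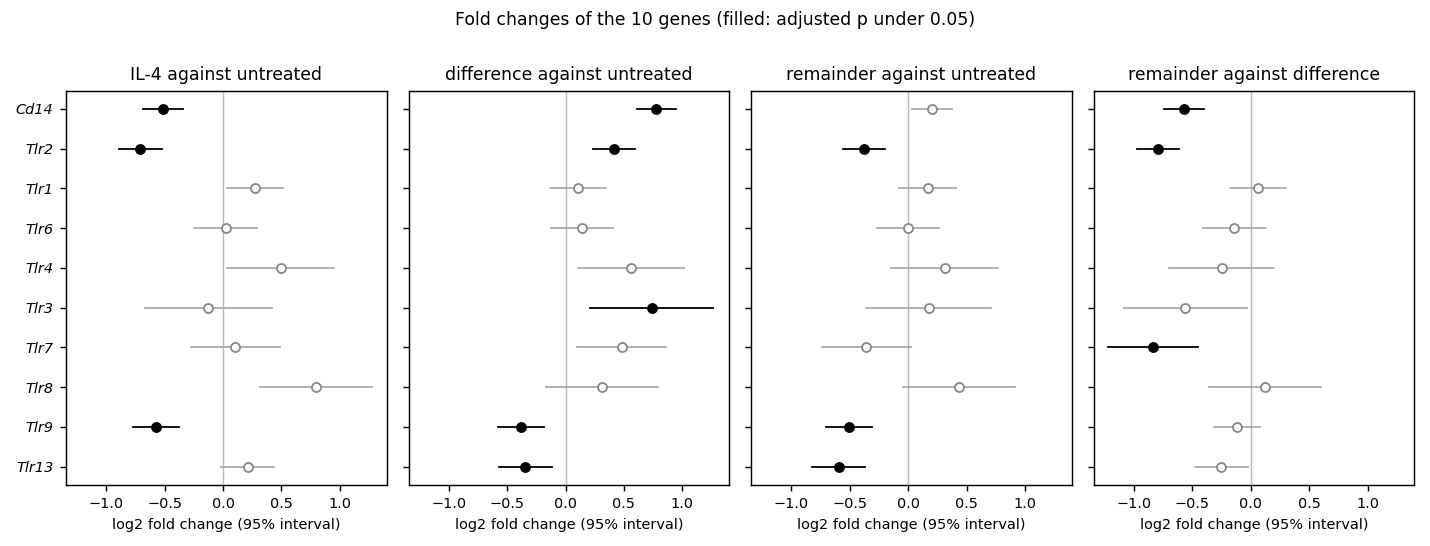
Log2 fold changes of the 10 genes with 95% intervals in 4 comparisons, from a single edgeR fit of 12 libraries. Filled points had an adjusted p under 0.05, which holds for 3, 5, 3 and 3 genes from left to right, and Tlr1, Tlr4, Tlr6 and Tlr8 have none. Of all genes tested, 3.4%, 23.2%, 25.3% and 5.25% were called in the same order.

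Across the members, 3 of 10 were called with IL-4 alone, all lower (Tlr2, Tlr9 and Cd14). Among all 12421 genes tested 3.4% were called and 1.09% were called lower. In the difference 5 of 10 were called, Tlr2, Tlr3 and Cd14 higher and Tlr9 and Tlr13 lower, where 23.2% of all genes were called. With the mouse as replicate block 3 of 10 were called, Tlr2, Tlr9 and Cd14, beside 21.4% of all genes. In the remainder 3 of 10 were called, all lower than in untreated cells (Tlr2, Tlr9 and Tlr13), where 25.3% of all genes were called and 11.7% called lower. This share of members is near that of all genes. The members' median log2 fold changes were 0.06, 0.36 and 0.08 in the same order, beside -0.00, -0.01 and -0.02 over all genes tested. These comparisons share the untreated libraries. Without mouse 3 the counts were 1, 2 and 2, beside 0.708%, 9.88% and 11.2% of all genes. In the difference 3 members were called without the untreated library of mouse 3 (19.7% of all genes) or the difference library of mouse 2 (17.7%). In the remainder 5 were called without the remainder library of mouse 2 (30.2% of all genes).

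Between the parts, 3 of 10 members were lower in the remainder than in the difference (Tlr2, Tlr7 and Cd14), beside 5.25% of all genes called and 2.38% called lower. Their median log2 fold change was -0.25, and that of all genes 0.01. Without the untreated and remainder libraries of mouse 2, 6 of 10 members were called, with Tlr3 (-0.80), Tlr4 (-0.50) and Tlr13 (-0.32) added, where 14.9% of all genes were called. Without mouse 3, 1 member was called, beside 0.813% of all genes. Against IL-4 alone, 4 members were called in the difference, with Tlr2 (1.12, edgeR adjusted p = 3.54e-07), Cd14 (1.29, adjusted p = 5.83e-08) and Tlr3 (0.86, adjusted p = 0.0234) higher and Tlr13 (-0.55, adjusted p = 0.00151) lower. In the remainder 3 were called, with Tlr2 (0.33, adjusted p = 0.0114) and Cd14 (0.72, adjusted p = 1.58e-05) higher and Tlr13 (-0.81, adjusted p = 7.96e-05) lower. Of all genes, 20.3% were called against IL-4 in the difference and 20.3% in the remainder. Without mouse 3 the calls against IL-4 in the difference numbered 2 (9.79% of all genes), and those in the remainder numbered 5 without mouse 2 (20% of all genes) or without its remainder library (24.6%). The Tlr3 value did not pass without mouse 1 (0.68) or mouse 3 (1.00), without the difference library of mouse 1 (0.68) or without any of the 3 IL-4 libraries (0.83 to 0.91). The Tlr13 value in the difference did not pass without mouse 3 (-0.55), and neither did that of Tlr2 in the remainder without mouse 2 (0.35) or mouse 3 (0.26).

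**Figure D3:**
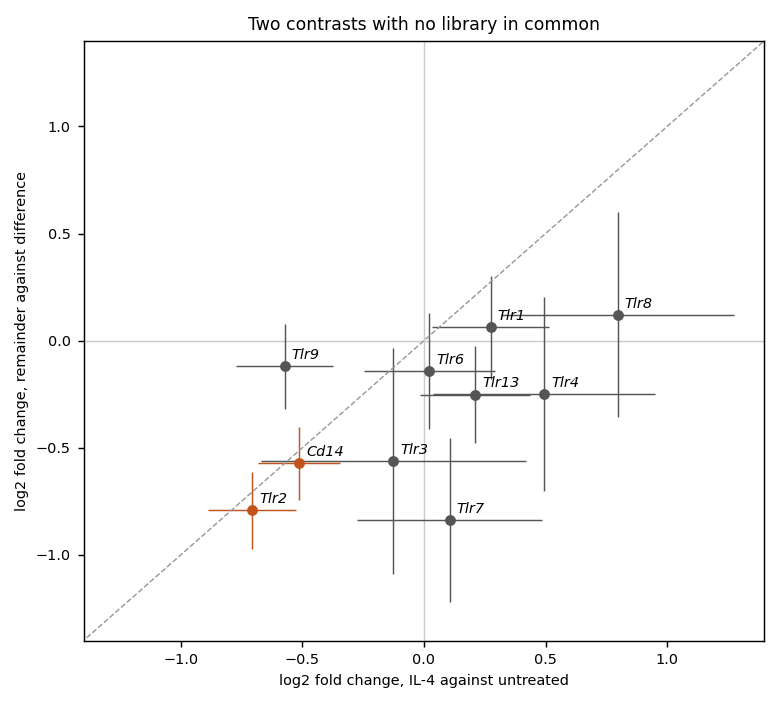
Log2 fold change of IL-4 against untreated (horizontal) and of remainder against difference (vertical) for the 10 genes, with 95% intervals as bars and the line of equal change dashed. These contrasts share no library, and the orange points, Tlr2 and Cd14, were called lower in both.

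The contrast of IL-4 with untreated cells and that of the remainder with the difference use no library in common, so their values can be set side by side. Tlr2 was at -0.71 in the former and -0.79 in the latter, and Cd14 was at -0.51 and -0.57. Tlr9 was at -0.57 and -0.12, and Tlr7 at 0.11 and -0.84. Under the first assignment these are the IL-4 effects without and with Wnt3a, and the test of their difference called 0 of 10 members with edgeR, beside 0.105% of all genes. At an unadjusted p under 0.05 it gave 4 members (Tlr4, Tlr7, Tlr9 and Tlr13), and DESeq2 called 1, Tlr7 (-0.95, adjusted p = 0.0221), beside 1.5% of all genes. The difference between the effects was -0.08 for Tlr2 (95% interval -0.34 to 0.17) and -0.06 for Cd14 (-0.30 to 0.18), and for Tlr7 it was -0.94 (-1.48 to -0.41, edgeR adjusted p = 0.160). The value for Tlr7 passed without mouse 2 (-1.02, adjusted p = 0.0299).

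Under the other assignment the IL-4 effect with Wnt3a is the reverse, and its difference from the effect without Wnt3a was called for 3 of 10 members, beside 7.33% of all genes. It was 1.50 ± 0.12 for Tlr2 (edgeR adjusted p = 1.83e-06), 1.09 ± 0.11 for Cd14 (adjusted p = 2.26e-05) and 0.69 ± 0.13 for Tlr9 (adjusted p = 0.00402). All 3 were positive, which means that the IL-4 effect was higher with Wnt3a than without, not that the levels were. The value for Tlr9 did not pass without mouse 3 (0.64, adjusted p = 0.125). Without mouse 2 the calls also included Tlr3 (1.22, adjusted p = 0.0103) and Tlr7 (1.13, adjusted p = 0.00114), and leaving out the untreated library of mouse 2 alone had the same effect (0.96 and 0.92). The shares of all genes called were then 11.5% and 8.41%.

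**Figure D4:**
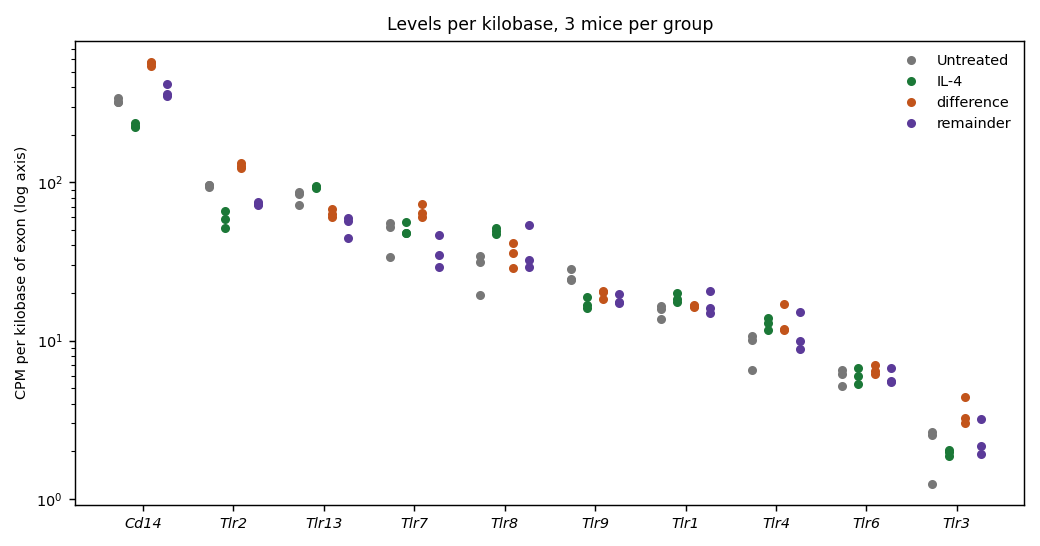
Level of each gene in CPM per kilobase of exon on a log axis, 1 point per mouse, in grey for untreated cells, green for IL-4, orange for the difference and purple for the remainder. Genes are ordered by their untreated mean, from Cd14 at 328 to Tlr3 at 2.14. With IL-4 the means of Tlr2 and Tlr13 exchange order, and so do those of Tlr1 and Tlr9.

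Levels between genes were compared per kilobase of exon. In untreated cells the order of mean levels was Cd14 at 328 ± 11.2 CPM per kilobase (SD, n = 3), Tlr2 at 95.6 ± 1.45, Tlr13 at 81.1 ± 8.39, Tlr7 at 47.0 ± 11.5, Tlr8 at 28.4 ± 7.87, Tlr9 at 25.7 ± 2.33, Tlr1 at 15.4 ± 1.54, Tlr4 at 9.12 ± 2.26, Tlr6 at 5.93 ± 0.70 and Tlr3 at 2.14 ± 0.77. Neighbors in this order that overlapped were Tlr7 with Tlr8 and Tlr8 with Tlr9. With IL-4, Tlr13 (93.8 ± 1.55 CPM per kilobase) stood above Tlr2 (58.5 ± 7.45), and Tlr7 (50.6 ± 4.92) and Tlr8 (49.3 ± 1.88) overlapped. The mean of Tlr1 (18.6 ± 1.18) then stood above that of Tlr9 (17.3 ± 1.37), with overlapping libraries. In the difference Tlr7 (65.6 ± 6.15 CPM per kilobase) and Tlr13 (63.9 ± 4.02) overlapped below Tlr2 (128 ± 4.05). In the remainder Tlr8 (38.3 ± 13.4 CPM per kilobase) and Tlr7 (36.7 ± 8.74) overlapped each other and Tlr13 (53.7 ± 7.99). Cd14 was highest and Tlr3 lowest in all 12 libraries.

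Mouse 2 stood apart in a pair of groups. In 7 of the 10 members (Tlr1, Tlr3, Tlr4, Tlr6, Tlr7, Tlr8 and Tlr13) it was both the lowest untreated and the highest remainder library, a pattern found in 24.8% of all tested genes. Tlr2, Tlr9 and Cd14 did not have it. Its part in the results was not tested beyond leaving the libraries out. Without these 2 libraries, a choice made after seeing the data, 4 members were called with IL-4 (adding Tlr8 at 0.57), 5 in the difference and 5 in the remainder (adding Tlr7 at -0.74 and Cd14 at 0.28). The share of all genes called was then 4.4%, 24% and 35.9%.

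All 7 macrophage markers (Adgre1, Csf1r, Itgam, Cd68, Fcgr1, Mertk and Lyz2) were present. Their sum was 50668 to 57818 CPM in untreated cells, 43592 to 51817 CPM with IL-4, 57417 to 67676 CPM in the difference and 56852 to 57176 CPM in the remainder, so that IL-4 and the difference, the lowest and highest groups of Cd14 and Tlr2, did not overlap. Itgam and Fcgr1 were higher in the difference (both 1.07 on the log2 scale, edgeR adjusted p = 1.38e-06 and 3.45e-06) and in the remainder (0.90 and 0.60), and Adgre1 was higher in the difference (0.31). Csf1r (-0.13), Cd68 (-0.12), Mertk (-0.16) and Lyz2 (0.22) were not called in the difference. With IL-4 no macrophage marker was called. Csf1r (0.10) and Cd68 (0.14) then lay above untreated cells, and Lyz2 (-0.26), Mertk (-0.21), Fcgr1 (-0.37), Adgre1 (-0.09) and Itgam (-0.01) below. The sum of 7 dendritic cell markers was 165 to 173 CPM in untreated cells, 152 to 164 CPM with IL-4, 473 to 524 CPM in the difference and 478 to 706 CPM in the remainder. Nearly all of it was Bst2, with means from 155 to 547 CPM, which was higher in the difference (1.57 on the log2 scale) and the remainder (1.71). Ccr7, likewise higher in both, was at 0.26 CPM in untreated cells, 4.05 CPM in the difference and 11.3 CPM in the remainder. Zbtb46 was at 0.37 CPM in untreated cells and 1.13 CPM in the remainder, where it was higher (1.56, edgeR adjusted p = 0.0113). The other 4 markers, Flt3, Xcr1, Clec9a and Siglech, had means of at most 0.32 CPM and did not pass the count filter. The sum of 8 neutrophil markers was 39.3 to 49.6 CPM in untreated cells, 51.5 to 61.3 CPM with IL-4, 28.9 to 45.8 CPM in the difference and 26.2 to 30.4 CPM in the remainder, and Ly6g was at 0 in the untreated libraries. Ngp was lower in the difference (-0.55 on the log2 scale), and Ngp (-0.90), S100a9 (-0.68) and Camp (-0.88) were lower in the remainder. S100a8 and Mpo were not called. Sums of stromal markers lay between 5.74 and 29.9 CPM, and those of B cell, T cell and mast cell markers reached at most 4.58 CPM. At these low levels the mast cell marker Kit was lower with IL-4 (-0.97), in the difference (-0.67) and in the remainder (-1.20). The stromal marker Pdgfrb was higher in the difference (1.00). The part of these lists in the results was not tested.

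The rest of the pathway was read from lists arranged by role, which were chosen with earlier results of these data known. Of 18 genes known to be induced by receptor ligands 16 were tested, and in the difference 9 were higher and 4 lower than in untreated cells, beside 11.8% and 11.4% of all genes. The median log2 fold change of the list was 3.02. Saa3, an acute-phase protein, went from 10.7 ± 1.73 to 3356 ± 907 CPM (SD, n = 3; log2 fold change 8.30, edgeR adjusted p = 4.35e-09), and the chemokine Ccl5 from 12.2 ± 1.55 to 2239.7 ± 144 CPM (7.52, adjusted p = 5.44e-12). Acod1, which makes itaconate, rose by 4.47, the cytokine Il1b by 3.30 and the siderophore-binding Lcn2 by 3.19 on the log2 scale. Lower were Tnf (-1.46) and the chemokines Ccl3 (-1.30), Ccl4 (-2.43) and Cxcl2 (-1.03). In the remainder 10 were higher and 4 lower, beside 13.6% and 11.7% of all genes. With IL-4 alone 0 were higher and 2 lower, Ccl3 (-0.95) and Ccl4 (-0.92), beside 2.31% and 1.09% of all genes. Il6 and Ifnb1 did not pass the count filter.

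Among 15 proximal kinases and ubiquitin ligases, 1 was lower in the difference (Irak2, -0.37) and 1 in the remainder (Tab2, -0.33), where 11.4% and 11.7% of all genes were lower, and the list's median was -0.06 in the difference. Of the adaptors, 6 were tested and the table held no row for Tasl under that symbol. Ticam2, the adaptor that links Tlr4 to Ticam1, was higher in the difference (0.53) and the remainder (0.49), and Sarm1 was lower (-1.12 and -1.38) at 1.93 CPM or less on average. Pik3ap1, which links the receptors to phosphoinositide 3-kinase, was lower in the remainder (-0.47, edgeR adjusted p = 0.00697). Myd88 was at 124 ± 7.92 CPM in untreated cells and 131 ± 7.82 CPM in the difference (0.08, edgeR adjusted p = 0.539). Of 10 genes for receptor folding and endosomal trafficking, 4 were higher in the difference, the chaperone Hsp90b1 (0.98), Cnpy4 (0.31) and the cathepsins Ctsl (0.48) and Ctss (0.49), and Slc15a4 (-0.49) and Lgmn (-0.29) were lower. Of all genes, 11.8% were higher and 11.4% lower there. In the remainder 4 of the 10 were higher and 1 lower, beside 13.6% and 11.7% of all genes. Unc93b1 was at 1243 ± 86.9 CPM in untreated cells and 1151 ± 123 CPM in the difference (-0.11, adjusted p = 0.423).

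Inhibitors of receptor signaling differed among themselves. Of 9 tested, 4 were higher in the difference, Socs1 (1.23), Irak3 (0.66), Cyld (0.42) and Trafd1 (0.26), and 0 lower. Of all genes, 11.8% were higher and 11.4% lower there. In the remainder 2 of the 9 were higher and 2 lower, beside 13.6% and 11.7% of all genes. Irak3, a kinase-like inhibitor of the Myd88 complex, was at 60.9 ± 2.64 CPM in untreated cells, 41.7 ± 2.11 CPM with IL-4, 95.9 CPM (84.0 to 108 CPM over the 3 mice) in the difference and 52.7 ± 3.48 CPM in the remainder. Its log2 fold change was -0.55 with IL-4 (edgeR adjusted p = 0.00407) and -0.86 between the parts (adjusted p = 8.07e-05). Socs1, a feedback inhibitor of cytokine signaling, was instead 1.92 higher on the log2 scale in the remainder than in the difference (adjusted p = 0.000363). Of 4 interferon regulatory factors, Irf7 was higher in the difference (3.12) and the remainder (3.27) and Irf5 lower (-0.47 and -0.33). Among receptor partners, the lipid receptor Cd36 was higher with IL-4 (1.28), lower in the difference (-0.83) and higher in the remainder than in the difference (0.70), and Ly96, the lipopolysaccharide-binding partner of Tlr4, was at 8.57 ± 3.33 CPM in untreated cells and 7.81 ± 1.18 CPM in the difference. Of the other receptor genes, Tlr5 was tested and not called against untreated cells (0.98 CPM in untreated cells and 1.41 CPM in the difference). Against IL-4, where it was at 0.34 CPM, it was higher in the difference (2.01 on the log2 scale, edgeR adjusted p = 0.00411) and the remainder (2.21, adjusted p = 0.00202). Tlr11 and Tlr12 did not pass the count filter.

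**Figure D5:**
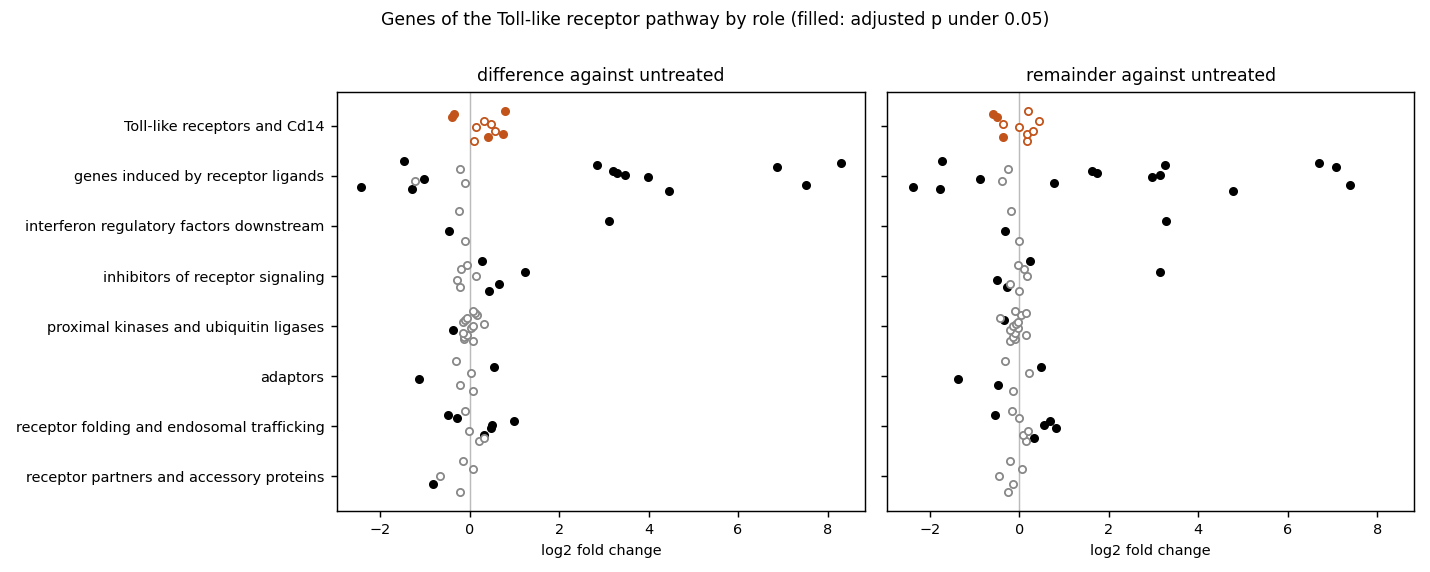
Log2 fold changes against untreated cells of the 10 genes (top row, orange) and of pathway genes by role, for the difference (left) and the remainder (right). Filled points had an adjusted p under 0.05, and the genes induced by receptor ligands spread from -2.43 to 8.30 on the left.

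Genes with the most similar levels across the 12 libraries were found among 8492 genes, by the root mean square distance between log2 levels after each was set against its untreated mean. For Tlr2 they were Mtus1 at 0.14, Sephs2 at 0.15 and Prkar2b at 0.20, where Tlr2 itself lay 0.46 from its untreated mean. For Cd14 they were Tsku at 0.13, Rbpms at 0.15 and Msrb1 at 0.17, with 0.48 for Cd14 itself. For Tlr7 they were Iqgap2, Eif2a and Vps35 at 0.12 to 0.13, for Tlr9 Limd2, Klhl6 and Xpc at 0.14 to 0.15, and for Tlr13 Cdk19, Pik3cb and Cd28 at 0.10 to 0.11. For Tlr8 the nearest was Mitf at 0.13. The members themselves were left out of the genes searched. These distances describe libraries that share mice and preparation, and no test was made of them.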

How the data were processed

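Per the submitters' processing notes, reads were trimmed (Trimmomatic 0.36), mapped to mm10 (STAR 2.6.0) and assigned to genes (HTSeq 0.11.1), and the authors deposited raw counts without normalization. The paper gives UCSC genes, whereas Ensembl identifiers are listed, and 48058 of 48526 (99.0%) had a symbol. The difference and remainder were computed as above. The 10 members and all lists were chosen with earlier results of these data known. The test was edgeR 4.0.16 (quasi-likelihood, TMM, R 4.3.3) in 1 fit of 12 libraries without a mouse term, and fold changes are on its log2 scale. CPM were divided by exon length where genes were compared. Named genes are the members, the pathway lists and, for likeness, the 3 nearest genes whose mean reached 8 CPM. The same mouse gave 1 library to each group, which pairs the libraries, and deviations of same-mouse libraries from group means correlated between -0.42 and 0.45. Alternatives were DESeq2 1.42.0, its size factors, total counts, other count filters, only the groups compared, the deposited columns, the mouse as replicate block, a log2 fold change of at least 1 and each mouse or library left out. Positions, overlaps and shared stretches came from the GENCODE annotation of GRCm38, and promoters from RefSeq. Replicates are separate mice.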

Additional observations from a re-analysis of the deposited data

Results flagged for a closer look

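For 3 genes the IL-4 effect with Wnt3a differed from that without Wnt3a under the assignment of the remainder as Wnt3a and the difference as Wnt3a+IL-4, by the interaction term of the edgeR fit. The difference was 1.50 on the log2 scale for Tlr2, 1.09 for Cd14 and 0.69 for Tlr9. The same test called 7.33% of all genes under this assignment. The value for Tlr9 did not pass without mouse 3 (0.64, edgeR adjusted p = 0.125). Under the first assignment the values for the same genes were -0.08, -0.06 and 0.45, and none was called, beside 0.105% of all genes. The labels do not settle which assignment holds.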

How the results depend on the processing

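Of 1900 recomputed values of single genes, 1719 kept direction and side of the threshold, and 3 of the 64 that changed sign were called on either side, all with the deposited columns, whose reads are shared. One was Tlr2 in the Wnt3a+IL-4 column against untreated cells (0.056, in place of -0.38 for the remainder). The others were, in the first assignment, the difference between the IL-4 effects for Tlr2 (0.59) and Cd14 (0.43). With the mouse as replicate block the calls in the difference against untreated cells numbered 3 (21.4% of all genes), without Tlr3 and Tlr13, and no other member's call changed in any comparison. Calls rest on 3 mice per group, and the part of depth in the uncalled changes was not tested. The causes of the changes below were not tested.

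Over the fits that leave out a mouse or a library, members called ranged from 1 to 4 for IL-4 (0.708% to 4.28% of all genes), 2 to 7 for the difference (9.88% to 25.7%) and 2 to 5 for the remainder (11.2% to 30.9%) against untreated cells, 1 to 5 between the parts (0.813% to 9.56%), 2 to 6 and 2 to 5 for difference (9.79% to 22.6%) and remainder (8.38% to 24.6%) against IL-4, and 0 to 1 and 2 to 5 for the first (0% to 0.346%) and other assignment (2.11% to 11.5%). With all genes of at least 1 count the counts were 5, 8 and 6 against untreated cells (3.47%, 13.8% and 15.5% of 23413 genes), 5 for the remainder against IL-4 (12.5%), and 4 and 6 for the assignments (2.46% and 6.43%). In that fit p-values fell at nearly unchanged fold changes. Tlr8 with IL-4 was at 0.78 (edgeR adjusted p = 5.69e-13), beside 0.80 (0.0756) with the count filter. Tlr7 in the first assignment was at -0.93 (8.88e-09), beside -0.94 (0.160). With a minimum absolute log2 fold change of 1 they were 0 against untreated cells (1.07%, 6.78% and 7.38% of all genes), between the parts (1.48%) and for the remainder against IL-4 (5.9%), and 2 for the difference against IL-4 (6.72%). DESeq2 called 1 in the first assignment (1.5%). The deposited columns gave 3 in the first assignment (1.06%). Between the Wnt3a and Wnt3a+IL-4 columns themselves they gave 0, and 0 members had an unadjusted p under 0.05 with edgeR. Without the untreated and remainder libraries of mouse 2 the counts were 5 for the remainder against untreated cells (35.9%), 6 between the parts (14.9%), 6 for the remainder against IL-4 (28.7%), and 2 and 5 for the assignments (1.01% and 18.3%).

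Signs of uncalled values changed as follows, on the log2 scale. Over the fits that leave out a mouse or a library, IL-4 against untreated cells ranged from -0.39 to 0.058 for Tlr3, -0.17 to 0.13 for Tlr6 and -0.084 to 0.27 for Tlr7, and the difference against untreated cells from -0.023 to 0.22 for Tlr6. The remainder against untreated cells ranged from -0.058 to 0.32 for Tlr1, -0.34 to 0.49 for Tlr3, -0.14 to 0.59 for Tlr4, -0.19 to 0.11 for Tlr6 and -0.097 to 0.70 for Tlr8. Between the parts the ranges were -0.080 to 0.16 for Tlr1, -0.59 to 0.0998 for Tlr4 and -0.19 to 0.41 for Tlr8. Against IL-4 they were -0.13 to 0.17 for Tlr4 in the difference, and -0.50 to 0.015 for Tlr4, -0.11 to 0.066 for Tlr6 and -0.014 to 0.16 for Tlr9 in the remainder. For the assignments they were -0.19 to 0.013 for Tlr2 in the first, and -0.67 to 0.23 for Tlr4 and -0.16 to 0.25 for Tlr13 in the other.

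Without the untreated and remainder libraries of mouse 2, IL-4 gave -0.081 for Tlr6 and -0.097 for Tlr7. The remainder against untreated cells then gave -0.045 for Tlr1, -0.33 for Tlr3, -0.13 for Tlr4 and -0.084 for Tlr8. The parts gave -0.073 for Tlr1 and -0.19 for Tlr8, and the other assignment 0.21 for Tlr4. With the deposited columns in place of the parts, the Wnt3a+IL-4 column against untreated cells gave 0.053 for Tlr6 and 0.10 for Tlr7. Against IL-4, the Wnt3a column gave -0.012 for Tlr4, and the Wnt3a+IL-4 column gave 0.041 for Tlr6 and 0.0092 for Tlr7. The assignments gave 0.047 for Tlr3 in the first and -0.16 for Tlr13 in the other. Tlr6 was at -0.038 with IL-4 under total counts, and in the remainder against untreated cells at 0.0013 with DESeq2, 0.0015 with its size factors and 0.0069 with all genes of at least 1 count.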
